A study of Mus musculus with 2 samples.

Results

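The genes described here are 54 genes of the TGF-β and BMP signalling pathway, listed by name: 16 ligand genes, the protease gene Bmp1, 13 receptor genes, 8 Smad genes, 8 secreted modulators, 4 intracellular inhibitors and 4 Id target genes. They were taken from a table of 35798 rows in which a row named that gene alone, and 53 of the 54 had such a row. Eng, which encodes the co-receptor endoglin, shared its row with the neighbouring adenylate kinase gene Ak1 and is given as a shared value only. Expression was measured by RNA sequencing in cells sorted from adult mouse bone marrow, 1 library per genotype, each from RNA pooled from 3 animals.

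The JAK2 V617F library came from C57BL/6 mice carrying Nes-gfp, Mx1-cre and JAK2-V617F, and the control library from C57BL/6 littermates labelled Nes-gfp. Both groups received pIpC and were collected 6 weeks afterwards. pIpC is a double-stranded RNA analogue that induces interferon and so turns on Mx1-cre, which recombines in blood-forming cells and in other interferon-responsive cells. JAK2 V617F keeps the kinase active and drives myeloproliferative neoplasms. No Cre is given in the labels of the control mice, so Cre and the mutation cannot be told apart. The sorted cells lacked CD45, CD31 and Ter119, which mark blood, vessel-lining and red cells at the surface, and carried GFP under nestin regulatory sequence, which in marrow labels stromal cells around vessels.

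Ligands of the TGF-β superfamily are secreted dimers that bring together type I and type II receptor kinases. TGF-βs and activins act mainly through Smad2 and Smad3, BMPs through Smad1, Smad5 and Smad9, and both sets of Smads pair with Smad4 to enter the nucleus. In bone marrow TGF-β holds stem cells quiescent, and BMPs direct stromal cells into bone and cartilage. Many of the pathway's brakes are secreted traps or are themselves target genes.

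The values are the FPKM the authors deposited, fragments scaled by transcript length and sequencing depth, so levels can be set side by side between genes. There were no replicates, so none of the values has a replicate error, no test between genotypes was possible, and every difference is one between 2 pools of cells. Differences are given as log2((JAK2 V617F FPKM + 1)/(control FPKM + 1)). Called higher or lower means that the JAK2 V617F library differed by 2-fold or more on this scale, for a gene that reached 1 FPKM in either library. Depth, estimated from the steps of low values, was near 6100000 fragments in the JAK2 V617F library and 5320000 in the control. In bulk RNA, fewer cells of a type and less RNA per cell cannot be told apart.

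Stromal markers were present in both libraries and summed to 974 FPKM in JAK2 V617F cells and 1206 FPKM in control cells, and several other marker lists given here summed to as much or more. The levels of Jak2 (29.9 FPKM in JAK2 V617F cells against 24.5 FPKM in control cells) do not check the genotype, since the table separates no alleles. All 10 stromal markers were within 2-fold, with Cxcl12 at 694 FPKM in the JAK2 V617F library against 891 FPKM in the control, Lepr at 65.4 FPKM in JAK2 V617F cells against 84.8 FPKM in control cells and Nes at 3.00 FPKM in JAK2 V617F cells against 4.84 FPKM in control cells. Markers of other cell types were present and differed between the libraries, and their part in the results below was not tested. Osteoblast markers summed to 1922 FPKM in the JAK2 V617F library and 3845 FPKM in the control, with 4 of 8 called lower and none higher, among them Bglap (171 FPKM in JAK2 V617F cells against 519 FPKM in control cells), while Col1a1 was at 1436 FPKM in JAK2 V617F cells against 2784 FPKM in control cells. Cartilage markers summed to 1871 FPKM in JAK2 V617F cells and 333 FPKM in control cells, with 6 of 8 called higher, Prg4 alone giving 1234 FPKM in JAK2 V617F cells against 20.1 FPKM in control cells and Col2a1 238 FPKM in JAK2 V617F cells against 178 FPKM in control cells. Endothelial markers summed to 38.5 FPKM in JAK2 V617F cells and 31.8 FPKM in control cells, with Pecam1 at 19.0 FPKM in JAK2 V617F cells against 17.1 FPKM in control cells and Cdh5 at 4.66 FPKM in JAK2 V617F cells against 4.94 FPKM in control cells, 1 of 7 called higher, and Cldn5 listed at 0 in the control. Smooth muscle and pericyte markers summed to 268 FPKM in JAK2 V617F cells and 151 FPKM in control cells, with 2 of 6 called higher, Acta2 at 43.2 FPKM in JAK2 V617F cells against 12.2 FPKM in control cells and Rgs5 at 183 FPKM in JAK2 V617F cells against 115 FPKM in control cells. Leukocyte markers summed to 424 FPKM in JAK2 V617F cells and 307 FPKM in control cells (2 of 7 called higher), with Laptm5 at 183 FPKM in JAK2 V617F cells against 165 FPKM in control cells and Fcer1g at 112 FPKM in JAK2 V617F cells against 69.1 FPKM in control cells. Of 7 macrophage markers with a row, the 5 that reached 1 FPKM were called higher, with sums over the 7 of 31.9 FPKM in JAK2 V617F cells and 6.84 FPKM in control cells, Cd68 at 13.2 FPKM in JAK2 V617F cells against 3.14 FPKM in control cells and Csf1r at 7.41 FPKM in JAK2 V617F cells against 2.49 FPKM in control cells; Emr1 was at 0.258 FPKM in JAK2 V617F cells and 0.114 FPKM in control cells, C1qa was listed at 0 in both libraries and Cd14 in the control. Neutrophil sums were 2266 FPKM in JAK2 V617F cells and 2253 FPKM in control cells (3 of 7 called lower). Mpo was at 663 FPKM in JAK2 V617F cells against 577 FPKM in control cells. Elane was at 549 FPKM in JAK2 V617F cells against 402 FPKM in control cells. Of the 3 called lower, Ltf was at 9.01 FPKM in JAK2 V617F cells against 24.1 FPKM in control cells. Ngp was at 182 FPKM against 450 FPKM and Camp at 37.8 FPKM against 84.2 FPKM, in the same order. Erythroid sums were 975 FPKM in JAK2 V617F cells and 2038 FPKM in control cells (1 of 6 called lower), with Hbb-b1 at 379 FPKM in JAK2 V617F cells against 1096 FPKM in control cells and Slc4a1 at 195 FPKM in JAK2 V617F cells against 380 FPKM in control cells. Megakaryocyte sums were 61.9 FPKM in JAK2 V617F cells and 13.8 FPKM in control cells (3 of 6 called higher), with Vwf at 8.08 FPKM in JAK2 V617F cells against 5.53 FPKM in control cells, and with Pf4 (24.1 FPKM in the JAK2 V617F library) and Ppbp listed at 0 in the control. Schwann and neuronal sums were 5002 FPKM in JAK2 V617F cells and 670 FPKM in control cells (5 of 8 called higher), with Mbp at 4872 FPKM in JAK2 V617F cells against 624 FPKM in control cells and S100b at 76.2 FPKM in JAK2 V617F cells against 22.4 FPKM in control cells, and Snap25, Syt1 and Nefm listed at 0 in the control.

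Of the 53 pathway genes, 48 reached 1 FPKM in a library and 5 did not (Gdf5, Bmpr1b, Nog, Chrd and Fstl3). Of the 48, 6 were called higher, 6 lower and 36 were within 2-fold. Id1, Gdf10, Acvr1b, Bmp8a, Id2 and Skil were higher, and Inhbb, Acvr2b, Bmp7, Inhba, Bmp2 and Id4 were lower. The shares, 12.5% in each direction, lay beside 10% called higher and 8.68% called lower among 12447 protein-coding genes, so the pathway was not set apart by its counts. The median log2 ratio of the 48 was 0.04, against -0.04 for all protein-coding genes. When the libraries were scaled to equal sums, 7 pathway genes were called higher and 6 lower, and the shares of all protein-coding genes became 12.7% higher and 6.46% lower.

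**Figure D1:**
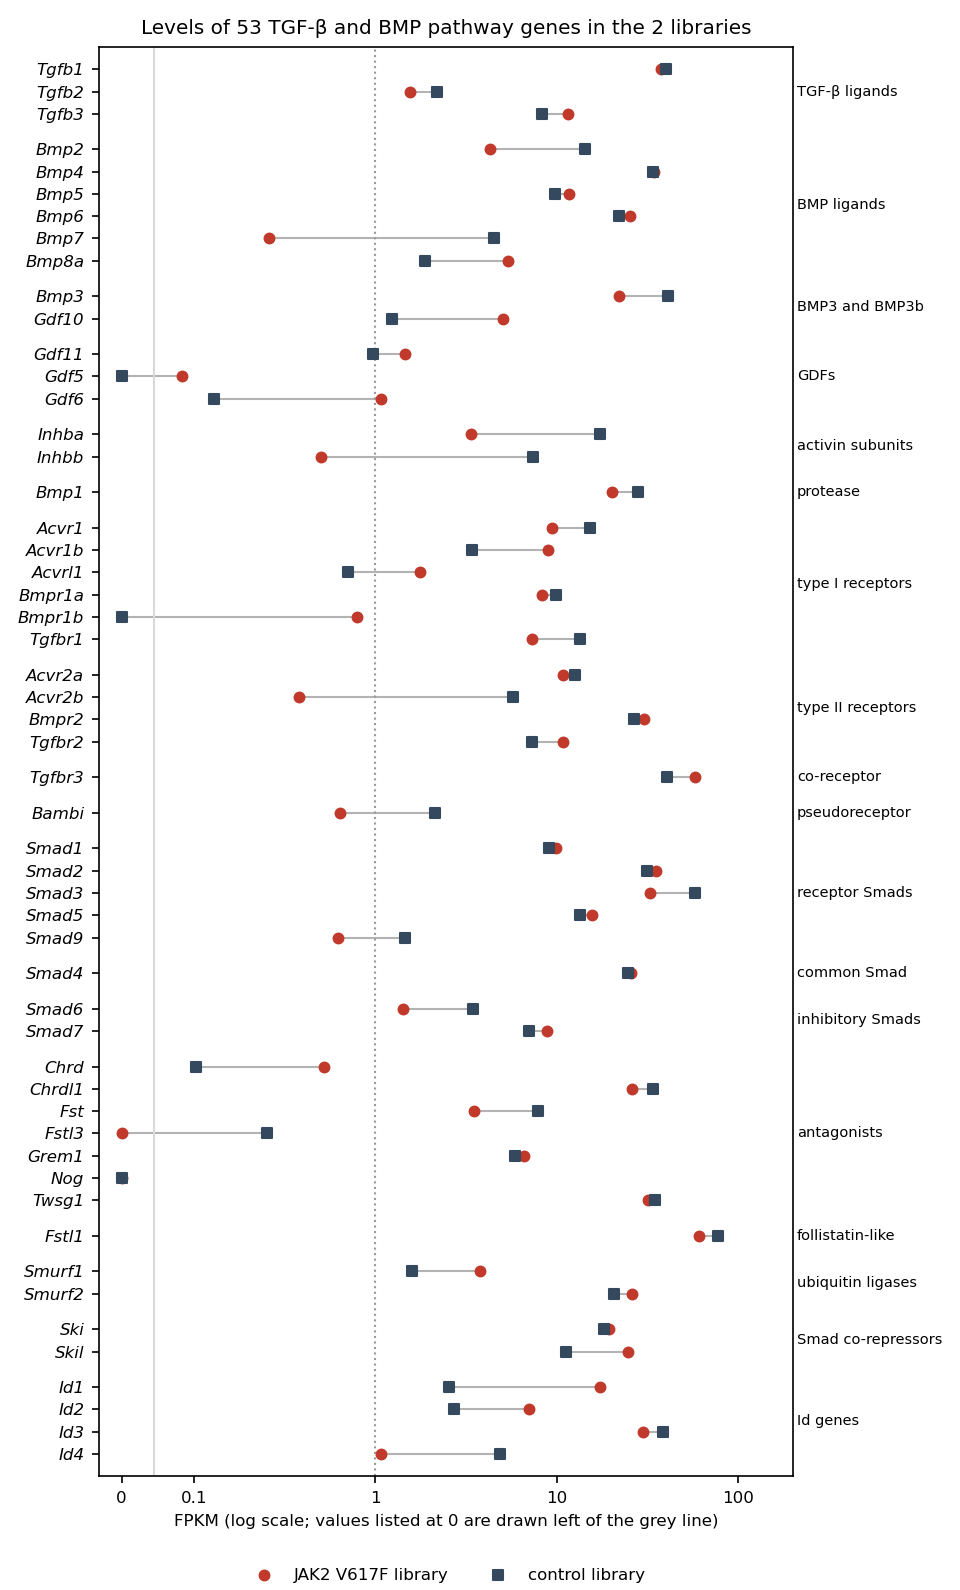
Each row is a pathway gene and the horizontal axis is FPKM on a log scale, with circles for the JAK2 V617F library and squares for the control library, 1 library each and no error bars. Bmp7, Inhbb, Acvr2b, Gdf6 and Id1 are among the most widely separated, and most genes above 10 FPKM have nearly overlapping symbols.

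Calls were more frequent among genes of low level, as they were among all protein-coding genes. Of the 23 pathway genes with a mean of 10 FPKM or more over the 2 libraries, 2 were called, Inhba and Skil, beside 10% of all protein-coding genes at such a mean. Of the 25 with a lower mean, 10 were called, beside 30% of protein-coding genes. With a pseudocount of 5, which damps low values, 4 of the 12 calls were kept (Id1, Bmp2, Inhba and Inhbb). Those of Bmp7, Bmp8a, Gdf10, Acvr1b, Acvr2b, Skil, Id2 and Id4 fell within 2-fold.

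**Figure D2:**
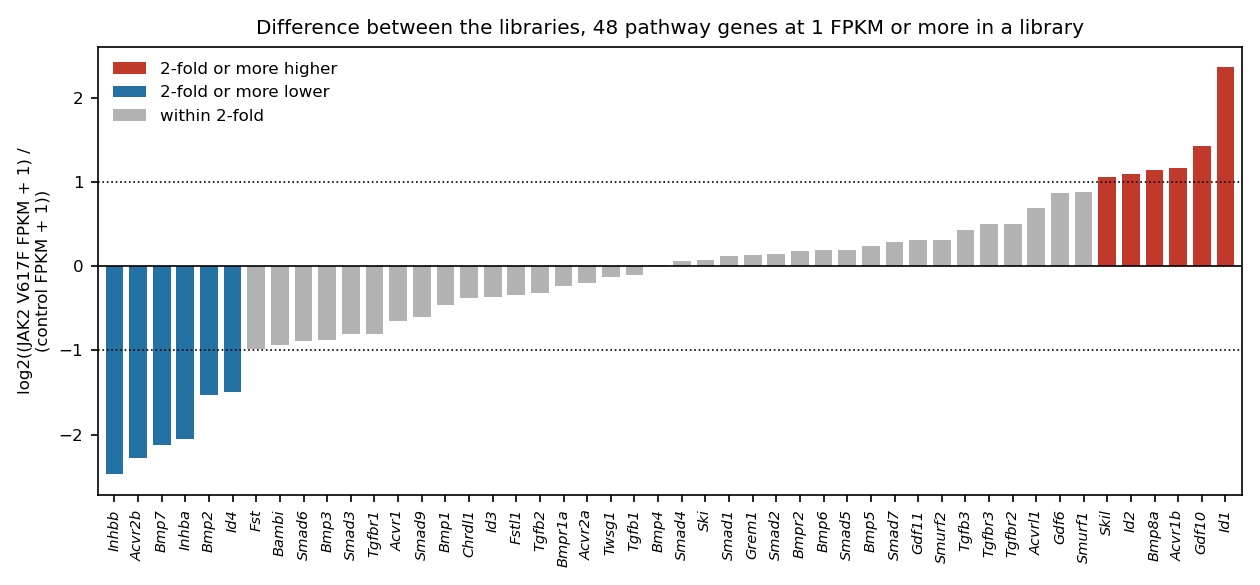
Bars give the log2 ratio of the JAK2 V617F over the control library, with a pseudocount of 1, for the 48 pathway genes at 1 FPKM or more in a library, and dotted lines mark 2-fold. The bars run from -2.48 for Inhbb to 2.37 for Id1, with 6 genes past each line.

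**Figure D3:**
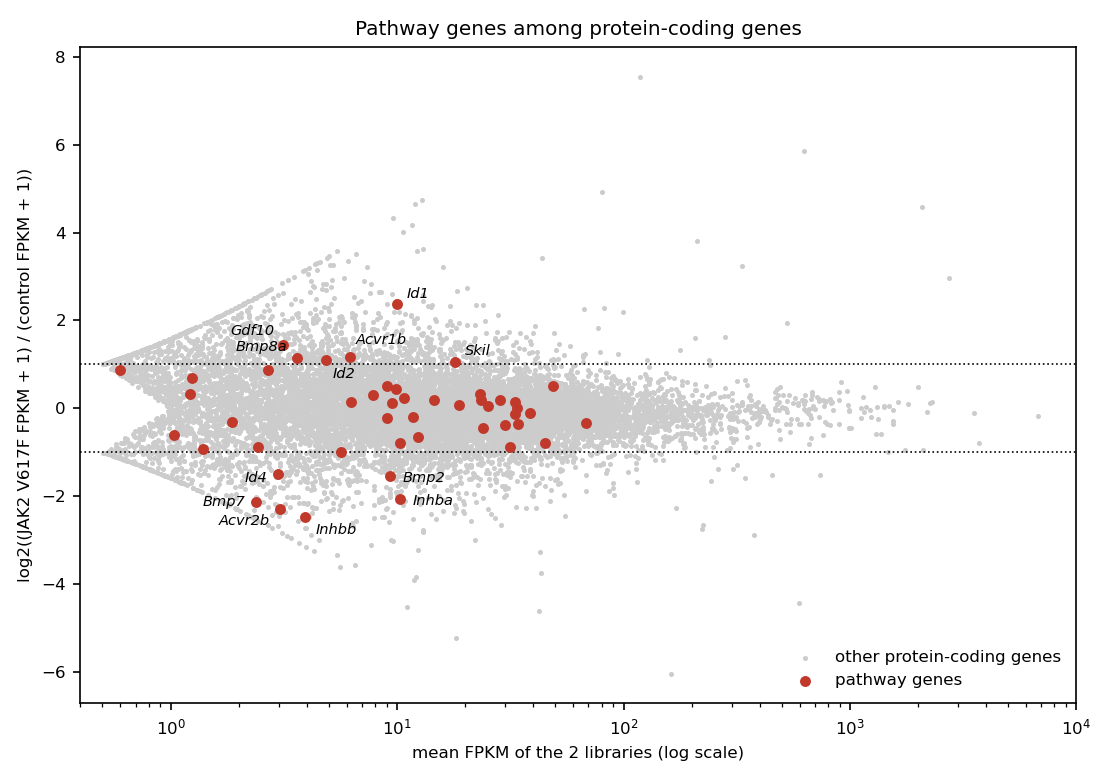
The horizontal axis is the mean FPKM of the 2 libraries on a log scale and the vertical axis the log2 ratio of the JAK2 V617F over the control library; grey points are protein-coding genes at 1 FPKM or more in a library and red points the 48 pathway genes. The 12 called pathway genes are named, and all but Skil and Inhba have a mean below 10 FPKM.

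Among the ligands, both activin genes and the BMP genes Bmp2 and Bmp7 were lower in the JAK2 V617F library, while Tgfb1, Bmp4 and Bmp6 were within 2-fold. Tgfb1, the main TGF-β of blood and stromal cells, was at 37.2 FPKM in the JAK2 V617F library and 40.0 FPKM in the control. Its log2 ratio of -0.10 turned positive, 0.0018 to 0.13, under all 3 rescalings tried. Tgfb3 was at 11.5 FPKM in the JAK2 V617F library and 8.25 FPKM in the control, and Tgfb2 at 1.55 FPKM in JAK2 V617F cells and 2.17 FPKM in control cells. The TGF-β genes thus kept one order in both libraries, Tgfb1 highest and Tgfb2 lowest, and their sum was 50.3 FPKM in the JAK2 V617F library and 50.4 FPKM in the control. Annotated Ttll5 overlaps Tgfb3 on the other strand, and the counting is not stated to use strand.

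Bmp4, a bone-inducing BMP of stromal cells, was the most abundant in both libraries of the 6 BMP genes other than Bmp3, at 34.1 FPKM in the JAK2 V617F library and 33.8 FPKM in the control. Bmp6, known also as the signal by which liver vessels set hepcidin, was at 25.3 FPKM in JAK2 V617F cells and 21.9 FPKM in control cells, and Bmp5 at 11.7 FPKM in JAK2 V617F cells and 9.70 FPKM in control cells. The Bmp5 row (chromosome 9 from 75775364 to 76136350) also spans the coding gene Hmgcll1, and those of Bmp4, Acvr1 and Gdf5 each overlap a predicted coding gene. Bmp4, Bmp5 and Bmp6 were within 2-fold. Bmp2, an inducer of bone formation, was at 4.30 FPKM in the JAK2 V617F library and 14.3 FPKM in the control (log2 ratio -1.53). Its row covers chromosome 2 from 133552159 to 133562885 (GRCm38), exactly its annotated gene, which has 1 transcript. About 90 estimated fragments in the JAK2 V617F library stood against 260 in the control, a ratio of 0.302 with an exact (Clopper-Pearson) 95% interval of 0.235 to 0.385 for counting error only. Bmp7, a BMP of kidney, skeleton and brown fat, fell to 0.260 FPKM in the JAK2 V617F library, against 4.51 FPKM in the control (-2.13). It lies on chromosome 2 from 172868012 to 172940321, and its longest coding transcript allows at most about 5.59 fragments in the JAK2 V617F library and 84.7 in the control. Bmp8a was higher, at 5.38 FPKM in the JAK2 V617F library against 1.87 FPKM in the control (1.15). Its row (chromosome 4 from 123312645 to 123343252) also spans Oxct2a, and reads may be split with its close paralog Bmp8b, which was at 0.903 FPKM in JAK2 V617F cells and 0.948 FPKM in control cells, so its value is uncertain. The 6 BMP genes summed to 81.0 FPKM in the JAK2 V617F library and 86.1 FPKM in the control, a log2 ratio of -0.09 that turned positive under the 3 rescalings. Within that sum the share of Bmp2 was 5.31% in the JAK2 V617F library against 16.7% in the control, and that of Bmp7 0.320% against 5.24%.

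The BMP3 pair differed in opposite directions. Bmp3, an antagonist of BMP signalling made by bone cells, was at 21.9 FPKM in the JAK2 V617F library and 40.9 FPKM in the control (log2 ratio -0.87). Gdf10, also called BMP3b and its closest relative, was higher, at 5.04 FPKM in JAK2 V617F cells against 1.23 FPKM in control cells (1.43). Its row covers chromosome 14 from 33923587 to 33935280. The joint-forming factor Gdf5 was at 0.0859 FPKM in the JAK2 V617F library and listed at 0 in the control. Gdf6, its relative in joint and skull formation, was at 1.07 FPKM in the JAK2 V617F library and 0.130 FPKM in the control. Its FPKM correspond to 22 fragments against 2, so that its fragment ratio was 9.59 (counting interval 2.36 to 84.1). On the scale with a pseudocount of 1 it stayed within 2-fold (0.87), and with a pseudocount of 0.1 it passed 2-fold (2.35). Gdf11 was at 1.46 FPKM in JAK2 V617F cells and 0.973 FPKM in control cells, and its fragment ratio was 1.53 (counting interval 0.857 to 2.79). Bmp1, which despite its name is a protease that trims procollagens and cleaves chordin, was at 20.1 FPKM in the JAK2 V617F library and 28.0 FPKM in the control (-0.46).

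The activin genes had the lowest ratio among the family sums compared here. Inhba and Inhbb encode the subunits of activin A and activin B. Inhba was at 3.37 FPKM in the JAK2 V617F library and 17.2 FPKM in the control (log2 ratio -2.06). Its row covers chromosome 13 from 16011851 to 16027211, where antisense transcripts are annotated. Inhbb was at 0.504 FPKM in the JAK2 V617F library and 7.37 FPKM in the control (-2.48). Of the pathway genes this was the most negative ratio with a pseudocount of 1, whereas with 0.1 that of Bmp7 was more negative (-3.68 against -3.63) and with 5 that of Inhba (-1.41 against -1.17). It lies on chromosome 1 from 119415465 to 119422248 with 1 transcript. About 13 estimated fragments stood against 161 in the control, which gives a ratio of 0.0704 (counting interval 0.0367 to 0.124). Together the subunits summed to 3.87 FPKM in the JAK2 V617F library and 24.5 FPKM in the control (-2.39), and the sum was lower under every rescaling (-2.30 to -2.18).

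**Figure D4:**
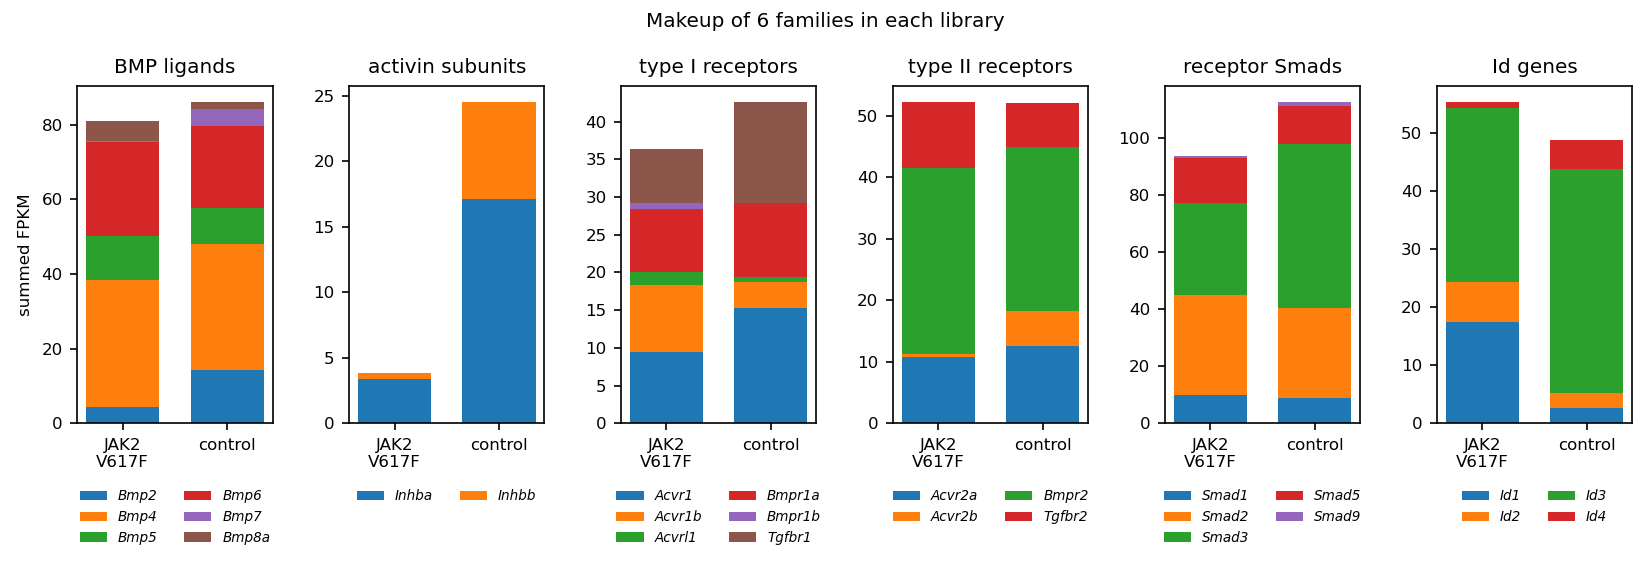
Stacked bars give the summed FPKM of 6 families, the JAK2 V617F library on the left and the control library on the right of each panel, with a linear axis from 0 and its own range in each panel. The activin bar is 3.87 FPKM in the JAK2 V617F library and 24.5 FPKM in the control, while the sums of type II receptors differ by less than 1 FPKM.

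Receptor genes differed in makeup more than in sum. The 4 type II receptor genes summed to 52.3 FPKM in the JAK2 V617F library and 52.2 FPKM in the control. Bmpr2, the type II receptor of BMPs, was the most abundant of them, at 30.3 FPKM in JAK2 V617F cells and 26.6 FPKM in control cells. Tgfbr2, which binds TGF-β itself, was at 10.7 FPKM in the JAK2 V617F library and 7.25 FPKM in the control (log2 ratio 0.51). The activin receptor gene Acvr2a was at 10.9 FPKM in JAK2 V617F cells and 12.6 FPKM in control cells, and its row also spans Orc4 and Mbd5. Acvr2b, the second activin type II receptor, was lower in the JAK2 V617F library, at 0.379 FPKM against 5.71 FPKM in the control (-2.28). Its row covers chromosome 9 from 119402444 to 119433501, with at most about 7.01 fragments in the JAK2 V617F library and 92.2 in the control, and Gm47320 is annotated on the opposite strand. Its share of type II receptor FPKM was 0.724% in the JAK2 V617F library and 10.9% in the control.

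Among type I receptors, Acvr1b, which encodes the activin receptor ALK4, was higher, at 8.96 FPKM in the JAK2 V617F library against 3.43 FPKM in the control (log2 ratio 1.17, chromosome 15 from 101174104 to 101213678). Acvrl1, the endothelial receptor ALK1, was at 1.77 FPKM in JAK2 V617F cells and 0.708 FPKM in control cells (0.70). It was within 2-fold, and past it with a pseudocount of 0.1 (1.21). Tgfbr1, the signalling receptor of TGF-β, was at 7.25 FPKM in the JAK2 V617F library and 13.4 FPKM in the control (-0.80), and Acvr1, the BMP receptor ALK2, at 9.40 FPKM in JAK2 V617F cells and 15.3 FPKM in control cells (-0.65). Both were within 2-fold. Bmpr1a, the broadly used BMP receptor ALK3, was at 8.23 FPKM in JAK2 V617F cells and 9.83 FPKM in control cells. Bmpr1b, the BMP receptor of cartilage, was at 0.793 FPKM in the JAK2 V617F library and listed at 0 in the control, below the 1 FPKM filter. The order of levels changed, with Tgfbr1 second to Acvr1 in the control and below Acvr1, Acvr1b and Bmpr1a in the JAK2 V617F library.

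Tgfbr3, betaglycan, which presents TGF-β2 and inhibin to the signalling receptors, had the highest level of all receptor genes, at 57.7 FPKM in the JAK2 V617F library and 40.4 FPKM in the control (log2 ratio 0.50). It stood above 88.3% of protein-coding genes in the JAK2 V617F library and above 79.9% in the control. The row shared by Ak1 and Eng was at 48.3 FPKM in JAK2 V617F cells and 29.6 FPKM in control cells (0.69). Bambi, a decoy receptor without a kinase, was at 0.638 FPKM in the JAK2 V617F library and 2.14 FPKM in the control (-0.94), just inside the 2-fold line, and past it with a pseudocount of 0.1 (-1.60).

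None of the 8 Smad genes was called, beside 10% called higher and 8.68% called lower among all protein-coding genes. With so few genes this does not set the Smads apart. Smad2 was at 35.0 FPKM in the JAK2 V617F library and 31.4 FPKM in the control, and the common partner Smad4 at 25.7 FPKM in JAK2 V617F cells and 24.5 FPKM in control cells. Smad3, the other TGF-β and activin Smad, was at 32.5 FPKM in JAK2 V617F cells and 57.4 FPKM in control cells (log2 ratio -0.80). Smad3 was thus the most abundant Smad in the control and second to Smad2 in the JAK2 V617F library. Smad2 and Smad3 together summed to 67.5 FPKM in the JAK2 V617F library and 88.8 FPKM in the control (-0.39, and -0.29 to -0.15 after rescaling). The BMP Smads were closer. Smad5 was at 15.6 FPKM in JAK2 V617F cells and 13.4 FPKM in control cells and Smad1 at 9.90 FPKM in JAK2 V617F cells and 9.0 FPKM in control cells. Smad9, the scarcest BMP Smad, was at 0.622 FPKM in JAK2 V617F cells and 1.46 FPKM in control cells (-0.60). With a pseudocount of 0.1 it lay past 2-fold (-1.11). Its fragment ratio was 0.425 (counting interval 0.236 to 0.743). The BMP Smads summed to 26.1 FPKM in the JAK2 V617F library and 23.9 FPKM in the control.

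The inhibitory Smads, which are made in response to the pathway and shut its receptors off, had ratios on either side of 1. Smad6, the brake on BMP receptors, was at 1.41 FPKM in the JAK2 V617F library and 3.45 FPKM in the control (log2 ratio -0.88, and -1.23 with a pseudocount of 0.1). Smad7, which acts on both branches, was at 8.77 FPKM in JAK2 V617F cells and 6.97 FPKM in control cells (0.29). Neither was called. Smad7 made up 86.1% of their summed FPKM in the JAK2 V617F library and 66.9% in the control.

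Of the 8 secreted modulators, 3 stayed below 1 FPKM in both libraries and so could not be called. None of the other 5 was called, beside 10% called higher and 8.68% called lower among all protein-coding genes. With so few genes this does not set the modulators apart. Fstl1, a follistatin-like glycoprotein of mesenchymal cells, had the highest level of all 53 genes in both libraries, at 60.3 FPKM in the JAK2 V617F library and 76.7 FPKM in the control. Twsg1, a chordin partner, was at 31.9 FPKM in JAK2 V617F cells and 34.8 FPKM in control cells, and Chrdl1, a chordin-like BMP trap, at 25.9 FPKM in JAK2 V617F cells and 33.9 FPKM in control cells. Grem1, gremlin, which sequesters BMP2 and BMP4, was at 6.62 FPKM in JAK2 V617F cells and 5.91 FPKM in control cells, and its fragment ratio was 1.12 (counting interval 0.882 to 1.43). Fst, follistatin, the trap for activins, was at 3.47 FPKM in the JAK2 V617F library and 7.86 FPKM in the control (log2 ratio -0.99), just inside the 2-fold line. With a pseudocount of 0.1 it lay past that line (-1.15). Chrd, chordin, was at 0.523 FPKM in JAK2 V617F cells and 0.102 FPKM in control cells, in a row that also spans Thpo. Nog, noggin, was listed at 0 in both libraries. Fstl3 had 0 FPKM in the JAK2 V617F library and 0.253 FPKM in the control, in a row that also spans Prss57.

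All 4 intracellular inhibitors had ratios above 1. Skil, which encodes the Smad co-repressor SnoN, was called higher, at 24.6 FPKM in the JAK2 V617F library against 11.3 FPKM in the control (log2 ratio 1.06, chromosome 3 from 31095058 to 31122577). Its relative Ski was at 19.4 FPKM in JAK2 V617F cells and 18.2 FPKM in control cells. Skil therefore exceeded Ski in the JAK2 V617F library and lay below it in the control, with 56.0% of their sum in JAK2 V617F cells and 38.2% in control cells. The ubiquitin ligase genes, whose products degrade Smads and receptors, were within 2-fold, Smurf2 at 26.0 FPKM in JAK2 V617F cells and 20.6 FPKM in control cells and Smurf1 at 3.78 FPKM in JAK2 V617F cells and 1.59 FPKM in control cells. Smurf1 (0.88) passed 2-fold with a pseudocount of 0.1 (1.197) and after rescaling to the same sum (1.01) or the same upper quartile (1.049).

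Id genes encode inhibitors of basic helix-loop-helix transcription factors, and are immediate targets of BMP Smads. Their members differed in both directions. Id1 was at 17.4 FPKM in the JAK2 V617F library and 2.55 FPKM in the control (log2 ratio 2.37), the largest ratio among the pathway genes on this scale. Its row covers chromosome 2 from 152736251 to 152737410, with at most about 108 fragments in the JAK2 V617F library and 13.8 in the control. Id2 was at 7.0 FPKM in the JAK2 V617F library and 2.72 FPKM in the control (1.11, chromosome 12 from 25093801 to 25096092). Id3 was the most abundant of the family in both libraries and within 2-fold, at 29.9 FPKM in JAK2 V617F cells and 38.6 FPKM in control cells (-0.36). Id4, which has a role in osteoblast differentiation, was at 1.08 FPKM in the JAK2 V617F library and 4.86 FPKM in the control (-1.50). The Id4 row runs from 48044231 to 48264036 on chromosome 13, far beyond the gene, and noncoding genes are annotated on its opposite strand. The family summed to 55.3 FPKM in the JAK2 V617F library and 48.7 FPKM in the control. Id1 made up 31.4% of that sum in the JAK2 V617F library and 5.23% in the control, and Id3 54% in JAK2 V617F cells and 79.2% in control cells. Marker sums also differed between the libraries, by the values given above. In the JAK2 V617F library those of Schwann and neuronal, cartilage, megakaryocyte, macrophage, smooth muscle and pericyte, and leukocyte markers were higher. The endothelial sum was also higher, at 38.5 FPKM against 31.8 FPKM in the control. Of the endothelial markers that reached 1 FPKM, 4 had log2 ratios above 0 and 3 below. Sums of osteoblast, erythroid and stromal markers were lower. The neutrophil sums were nearly equal, with 3 of 7 markers called lower. The part of these cell types in the Id levels was not tested.

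The promoters of 3 Id genes, which differed in opposite directions, and of Smad6, another BMP target, are shown because Smads bind DNA at short motifs. Each window, from RefSeq on GRCm38.p6, runs from 250 bases before to 50 after a transcription start, 5′ to 3′ on the gene's strand. Windows were on hand for Id2 (chr12:25096043-25096342, minus strand), Id3 (chr4:136143572-136143871, plus strand), Id4 (chr13:48260866-48261165, plus strand) and Smad6 (chr9:64022010-64022309, minus strand). No window was on hand for Id1, so the Id gene with the largest ratio is not shown. Capitals mark GTCT, the short Smad motif, on either strand (AGAC on the other), and GGCGCC, a GC-rich motif of BMP Smads that reads the same on both strands.
Id2: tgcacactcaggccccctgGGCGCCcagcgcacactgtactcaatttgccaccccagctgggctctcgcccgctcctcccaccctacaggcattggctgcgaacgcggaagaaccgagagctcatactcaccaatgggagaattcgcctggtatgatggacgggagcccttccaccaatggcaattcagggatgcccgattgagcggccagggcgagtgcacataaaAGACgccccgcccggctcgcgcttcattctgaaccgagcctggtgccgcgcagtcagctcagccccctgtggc
Id3: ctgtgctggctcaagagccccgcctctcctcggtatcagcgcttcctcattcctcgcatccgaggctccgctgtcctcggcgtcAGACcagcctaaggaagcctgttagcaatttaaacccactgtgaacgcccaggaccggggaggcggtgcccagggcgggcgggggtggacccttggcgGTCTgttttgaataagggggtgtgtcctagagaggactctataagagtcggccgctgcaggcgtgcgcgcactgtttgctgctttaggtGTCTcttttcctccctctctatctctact
Id4: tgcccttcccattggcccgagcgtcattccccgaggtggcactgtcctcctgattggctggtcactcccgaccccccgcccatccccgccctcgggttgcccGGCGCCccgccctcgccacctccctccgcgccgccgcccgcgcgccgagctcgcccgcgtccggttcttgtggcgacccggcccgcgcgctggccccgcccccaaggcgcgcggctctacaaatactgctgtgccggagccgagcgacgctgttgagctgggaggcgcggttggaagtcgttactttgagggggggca
Smad6: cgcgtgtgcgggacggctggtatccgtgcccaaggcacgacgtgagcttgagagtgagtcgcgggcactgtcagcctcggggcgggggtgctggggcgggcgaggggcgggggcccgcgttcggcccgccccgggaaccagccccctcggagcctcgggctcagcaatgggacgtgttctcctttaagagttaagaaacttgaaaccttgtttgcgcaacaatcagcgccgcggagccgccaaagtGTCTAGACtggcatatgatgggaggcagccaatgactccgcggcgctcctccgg

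Id2, higher in the JAK2 V617F library, had 1 GTCT and 1 GGCGCC in this window. Id3, within 2-fold, had 3 GTCT and no GGCGCC, and Id4, lower, had no GTCT and 1 GGCGCC. Smad6 had 2 GTCT matches on opposite strands that join into GTCTAGAC, the palindrome of paired Smad sites. GTCT occurred in 88.0% of 32851 RefSeq promoter windows of this length, GGCGCC in 11.9% and GTCTAGAC in 0.213%. Of the 36 pathway genes with a window, 31 held GTCT, 13 held GGCGCC and 1, Smad6, held GTCTAGAC. These are counts of genes, with a match in any of their 41 windows, whereas the percentages above are of windows, so they are not alike. The windows of the pathway genes had a median G+C content of 67.7%, against 52.7% for all windows. The share of GGCGCC was not compared at equal G+C. A match describes these letters and does not show binding.

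**Figure D5:**
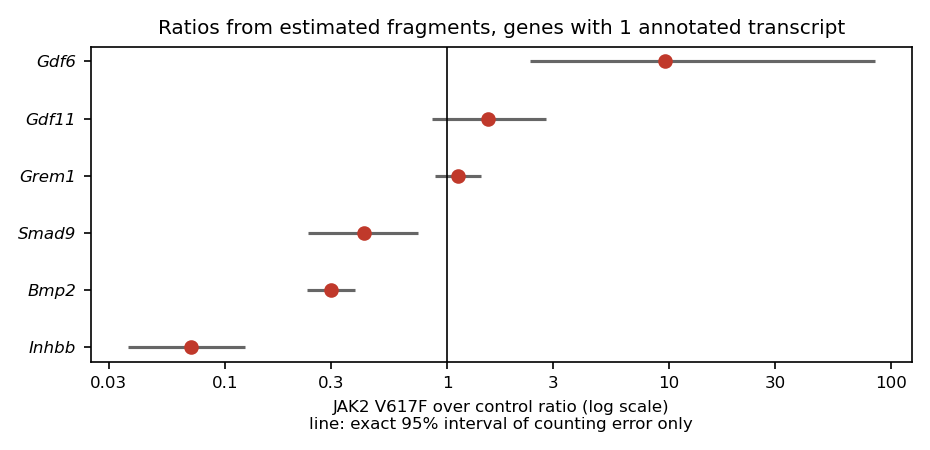
Points give the ratio of the JAK2 V617F over the control library from estimated fragments for the 6 pathway genes with 1 annotated transcript, on a log axis, and lines the exact 95% interval of counting error only. The intervals of Inhbb, Bmp2 and Smad9 lie below 1, that of Gdf6 above 1, and those of Grem1 and Gdf11 span 1.

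Beyond the 53 genes, 122 other genes of the pathway were listed by role. Of these 89 reached 1 FPKM, and 7 were called higher, 10 lower and 72 were within 2-fold (median log2 ratio -0.12). Their shares, 7.87% higher and 11.2% lower, lay near the 10% and 8.68% of all protein-coding genes, beside which the counts of each list also stand. In the latency and activation list, 1 of 14 was higher and 2 lower. Ltbp4, a latent TGF-β binding protein, was at 40.8 FPKM in the JAK2 V617F library against 16.5 FPKM in the control, Ltbp2 at 10.8 FPKM in JAK2 V617F cells against 22.8 FPKM in control cells, and Itgav, the integrin chain that releases latent TGF-β, at 15.3 FPKM in JAK2 V617F cells against 47.5 FPKM in control cells. Of 17 other ligands only 2 reached 1 FPKM, Lefty1, an antagonist of Nodal, at 4.71 FPKM in JAK2 V617F cells against 0.321 FPKM in control cells (called higher), and Gdf3 at 7.22 FPKM in JAK2 V617F cells against 13.8 FPKM in control cells. Of 6 further receptors and co-receptors, 1 was lower, the BMP co-receptor Rgma at 17.1 FPKM in JAK2 V617F cells against 44.7 FPKM in control cells, with Nrp2 at 49.8 FPKM in JAK2 V617F cells against 71.5 FPKM in control cells and Ptk7 at 3.23 FPKM in JAK2 V617F cells against 1.90 FPKM in control cells. Of 14 further secreted modulators, 2 were higher and 1 lower. The TGF-β-binding proteoglycan Fmod was at 44.2 FPKM in JAK2 V617F cells against 13.8 FPKM in control cells, Dand5 at 3.54 FPKM in JAK2 V617F cells against 0.880 FPKM in control cells, and the BMP antagonist Sostdc1 at 2.27 FPKM in JAK2 V617F cells against 10 FPKM in control cells.

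Of 25 intracellular regulators, 23 were within 2-fold. Tgif1, a Smad co-repressor, was higher, at 38.4 FPKM in the JAK2 V617F library against 11.1 FPKM in the control. Foxh1, a Smad partner, was lower, at 0.172 FPKM in JAK2 V617F cells against 1.59 FPKM in control cells, and Zfyve16 was at 12.1 FPKM in JAK2 V617F cells against 5.97 FPKM in control cells. Known target genes differed in both directions, with more called lower than higher in each list. Of 17 TGF-β targets, 1 was higher and 3 lower, and 11 log2 ratios were below 0 and 6 above. Their median log2 ratio was -0.33, against -0.04 for all protein-coding genes. Acta2, smooth muscle actin, was the higher one, and Ltbp2, also in the latency list, was among the lower. Junb, an AP-1 transcription factor, was also lower, at 15.1 FPKM in JAK2 V617F cells against 37.1 FPKM in control cells. Of 13 BMP targets, 1 was higher and 3 lower (median -0.12), and 7 log2 ratios were below 0 and 6 above. The bone transcription factors Dlx3 (4.70 FPKM in JAK2 V617F cells against 20.5 FPKM in control cells) and Sp7 (13.9 FPKM in JAK2 V617F cells against 32.9 FPKM in control cells) and Tbx3 (2.80 FPKM in JAK2 V617F cells against 8.85 FPKM in control cells) were lower. Gata2, a blood progenitor factor named here after its value was seen, was the higher one, at 16.4 FPKM in JAK2 V617F cells against 7.21 FPKM in control cells. Osteoblast marker sums were lower in the same library, and Col1a1, Sp7, Alpl, Acta2 and Tagln stand in both a target list and a marker list.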

How the data were processed

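The FPKM values were deposited by the authors as 1 table with 1 column per library, 35798 rows, each with a symbol and a locus. The submitters' processing notes name cutadapt 1.2.1, TopHat2 2.0.7, Bowtie2 2.0.6, Cufflinks and the build GRCm38. No annotation release, strand setting or library scaling is given in the sources used here. The cDNA was amplified from 2-3 ng of RNA and sonicated to about 300 bp, per the labels' protocols. No molecular identifiers are mentioned, so intervals cover counting error only.

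Rows were matched by symbol, and 401 rows naming several genes were left out. The background was the 12447 protein-coding genes (RefSeq GRCm38.p6) with a row of their own at 1 FPKM or more. Log2 ratios used a pseudocount of 1, which understates changes of low genes. Depth was sought among 3825 genes of 1 GENCODE vM21 transcript and the same locus. It was the lowest step of FPKM times length minus 140 nt, the sharpest of 31 offsets. The step itself was set by 134 of these genes in the JAK2 V617F library and 78 in the control. Of genes at about 1 to 3 estimated fragments, 82.3% in the JAK2 V617F and 81.3% in the control library lay within 0.2 of a whole number. The step and the offset were chosen from the same low values, so these shares are not an independent check. A fragment was worth 0.0881 and 0.101 FPKM on a 2 kb transcript. "At most" fragment numbers assume the longest coding transcript. The code was tested on simulated data. Calculations used Python 3.11.15, pandas 2.3.3 and scipy 1.17.1.

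The genes, lists and thresholds were chosen with earlier results of these data known. All 54 genes are named; from each other pathway list the 3 largest changes, and from each marker list the 2 highest genes, were named, except 1 that is not reported here. Alternatives were pseudocounts of 0.1 and 5, 3 rescalings, other filters, a 1.5-fold threshold and other row choices.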

Additional observations from a re-analysis of the deposited data

How the results depend on the processing

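The calls depended mostly on the pseudocount. With 0.1, 9 pathway genes were called higher and 10 lower, and with 5, 1 was higher and 3 lower, against 6 and 6 with 1. At a 1.5-fold threshold 9 were higher and 14 lower. The other rescalings, filters and row choices moved neither count by more than 1.5 times. The median log2 ratio of the pathway genes was 0.04 as deposited, 0.21 after rescaling to the same sum, 0.14 after rescaling to a median ratio of 1 and 0.27 after rescaling to the same upper quartile. It was 0.0624 with no filter, 0.0726 at 5 FPKM or more and 0.0624 with the shared Ak1 and Eng row. The same-sum rescaling moved the median of all protein-coding genes by 0.17 and the upper-quartile one by 0.22, and relative to all genes the pathway median stayed at 0.08 on each scale. Over all rows naming 1 gene, 2081 were higher and 1724 lower (13.8% and 11.4%). Of protein-coding genes at 5 FPKM or more, 642 were higher and 757 lower (6.72% and 7.92%). At 1 FPKM or more, 1246 protein-coding genes were higher and 1080 lower (10% and 8.68%), so the larger share changed sides between the filters. Of the 12 called pathway genes, 4 stayed past 2-fold in all 5 settings run per gene. The signs of the 12 could not have changed, since a pseudocount keeps the sign and the rescalings removed factors of only 0.848 to 0.930. Of the genes within 2-fold, Tgfb1 and Twsg1 changed sign under rescaling (Acvr2a under the upper quartile alone). With 1 library per genotype no replicate could be left out. Depth limits the genes with few fragments, such as Bmp7 and Acvr2b in the JAK2 V617F library.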

Other observations

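Some pathway genes are neighbours in the genome. Acvrl1 and Acvr1b lie 28.8 kb apart on chromosome 15 with no row between them, and had log2 ratios of the JAK2 V617F over the control library of 0.70 and 1.17. Smad3 and Smad6 lie 195 kb apart on chromosome 9 with no row between them, and had log2 ratios of -0.80 and -0.88. Gdf10 and Bmpr1a, 475 kb apart on chromosome 14 with 17 rows between them, had log2 ratios of 1.43 and -0.23. The pairs were noticed after their values were seen, and a shared cause was not tested.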
